A study of Homo sapiens with 6 samples.

Results

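The genes described here encode the proteins that mark, license and fire replication origins and that copy DNA at the fork. They were taken as a named list of 53 genes, all of which were found by symbol among the 62700 genes of the deposited count table. All 53 passed the filter on low counts and stood among the 14649 genes tested. The libraries came from SAS, a human tongue squamous carcinoma line, and measured poly(A)-selected RNA. In 3 of them the cells carried an siRNA against IGF2BP1 (siIGF2BP1; genotype label IGF2BP1 knockdown), and in the other 3 a control siRNA (siC; genotype label WT). Both groups are the same single cell line, and the labels give neither the siRNA sequences nor the time after transfection. The labels number the replicates and do not say whether each was its own culture. The p-values therefore cover the spread among these 6 libraries alone, which may be technical. Where 3 values are given for a group, they stand in the order of replicates 1 to 3.

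DNA replication starts at origins bound by the origin recognition complex, to which CDC6 and CDT1 bring the ring-shaped MCM helicase in G1. At the start of S phase the kinase CDC7-DBF4 and firing factors attach CDC45 and the GINS complex to the ring, which then unwinds DNA. Polymerase alpha with primase begins each strand, polymerase epsilon extends the leading strand and polymerase delta the lagging strand, held by the PCNA clamp that the RFC complex loads. Many of these genes are known targets of the E2F transcription factors. IGF2BP1 binds RNA and protects target transcripts from decay, and the stated aim of the study concerns its effect on YAP1.

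Total depth was between 17918496 and 25926371 counted reads in the knockdown libraries and between 23775889 and 26675064 in the controls. At these depths 3 reads equal 0.112 to 0.167 CPM, reads scaled to the library total (counting error only). All other CPM are also scaled by TMM factors, and adjusted p-values are from edgeR's quasi-likelihood test with Benjamini-Hochberg adjustment over all tested genes. IGF2BP1 itself had 29, 25 and 21 reads in knockdowns 1 to 3, against 185, 223 and 292 in controls 1 to 3 (log2 fold change -3.07, adjusted p = 4.56e-06). Knockdowns 1 and 2 stood above the other libraries in RNAs without poly(A) tails, of which 3 of the 6 listed had no reads. The list summed to 940, 502 and 101 CPM in knockdowns 1 to 3, and to between 41.6 and 182 CPM in the controls. RN7SL1 was highest in knockdown 2 (447 CPM, against 368 CPM in knockdown 1), and RNA5-8SN3 in knockdown 1 (543 CPM, against 50.7 CPM in knockdown 2). The part of these RNAs in the results was not tested. Of the other cell types, fibroblast markers summed to 5.72 to 9.24 CPM in knockdown and 6.37 to 8.50 CPM in control libraries, with COL3A1, DCN, LUM and THY1, 4 of 8, at 0 reads. Most of that sum was COL1A1, while PDGFRB was called higher, with 1.73 ± 0.477 CPM in knockdown and 0.605 ± 0.201 CPM in control libraries (SD, n = 3 each; log2 fold change 1.52, edgeR adjusted p = 0.0491). PDGFRB lost this call without any 1 library, and its part in the results was not tested. Endothelial markers summed to 6.43 to 13.5 CPM in knockdown and 6.29 to 7.41 CPM in control libraries, with 2 of 6, KDR and CLDN5, at 0. Leukocyte markers summed to 12.4 to 14.9 CPM in knockdown and 17.4 to 19.1 CPM in control libraries, nearly all of it CD14, with PTPRC and CD3E at 0. The squamous epithelial list summed to 6864 to 8039 CPM in knockdown and 11179 to 12202 CPM in control libraries, with all 10 of its genes detected. Most of that difference was KRT5, with 477 ± 32.9 CPM in knockdown and 3584 ± 233 CPM in control libraries. KRT14, KRT6A and CDH1 were also lower, and KRT17, TP63, EPCAM and SFN had log2 fold changes between -0.04 and 0.12. DSG3 (-0.66) and ITGB4 (-0.26) were lower in value but not called (edgeR adjusted p = 0.397 and 0.225).

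After IGF2BP1 knockdown 12 of the 53 replication genes were lower and 0 were higher at an adjusted p under 0.05. The 12 were ORC1, MCM2, MCM3, MCM5, GINS1, GINS2, GINS3, RECQL4, POLE, PCNA, FEN1 and LIG1, of which FEN1 fell by 21.1%, the least, and ORC1 and RECQL4 each fell by 43.4%, the most. Across all tested genes 6.66% were called lower and 6.27% higher, against 22.6% of the replication genes called lower. The median log2 fold change was -0.24 over the 53 genes and 0.03 over all 14649, and 43 of the 53 were below 0, against 46.7% of all tested genes. For the count of 0 higher, edgeR's quasi-likelihood test gave 0 also at an unadjusted p under 0.05, against 1920 higher of 14649 tested genes. DESeq2 and limma-voom also gave 0, against 7.06% and 5.91% of all genes that these tools called higher. Without knockdown 1, whose RNAs without poly(A) tails are given above, 13 genes were lower and 1, POLE4, was higher (log2 fold change 0.32, adjusted p = 0.0394), against 7.48% and 5.29% of all genes tested in that fit. Without knockdown 2, also given above for these RNAs, 12 were lower and 0 higher, against 895 and 828 of 15134 genes. In bulk RNA, fewer cells in S phase and less of a transcript per cell cannot be told apart.

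In all 12 called genes every knockdown library lay below every control library. The same held for 8 genes that were not called, CDC6, MCM4, MCM7, TICRR, POLD1, RFC2, RFC5 and RPA1, which makes 20 of 53. None of the 53 had all knockdown libraries above all controls. Over all tested genes 15.1% had every knockdown library below every control, and 15.5% had every one above.

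**Figure D1:**
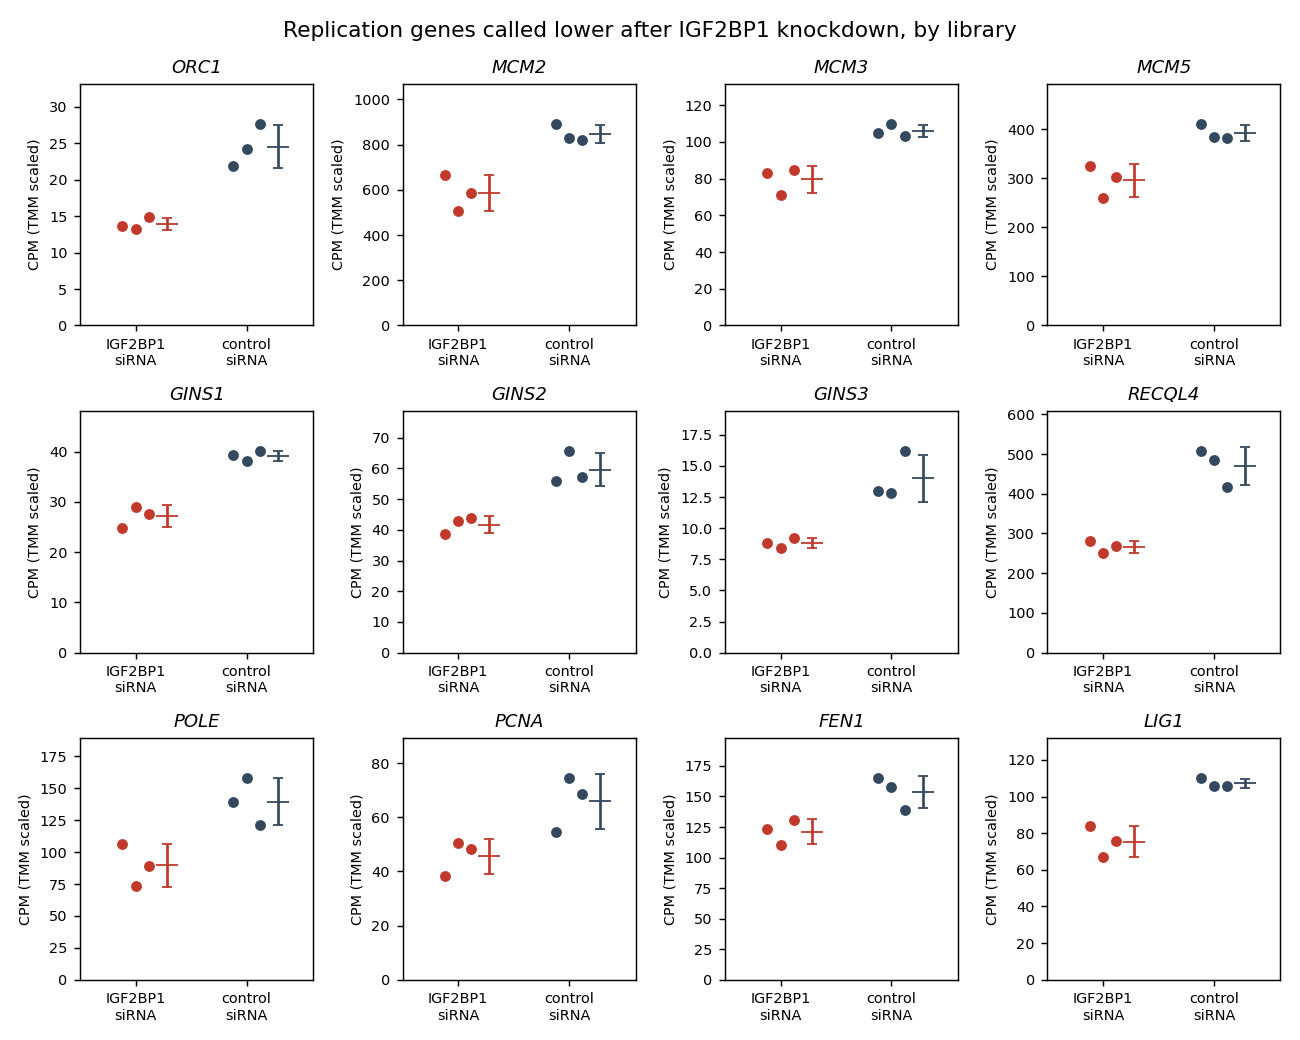
TMM-scaled CPM (axis from 0) of the 12 replication genes called lower, with 3 IGF2BP1 siRNA libraries (left, red) and 3 control siRNA libraries (right, dark) as points and the mean ± SD beside them. In each panel the highest knockdown library lies below the lowest control library, most narrowly in PCNA and FEN1.

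In the origin recognition complex, which binds origins and loads the helicase, ORC1 was the called subunit. ORC1 (ENSG00000085840; GRCh38 chromosome 1, 52372829 to 52404459, minus strand), the subunit whose level cycles in human cells, had 13.6, 13.2 and 14.9 CPM with siIGF2BP1 against 21.9, 24.2 and 27.7 CPM with siC. The knockdown libraries lay close together at 13.9 ± 0.853 CPM, well under the controls at 24.6 ± 2.92 CPM (SD, n = 3 each). ORC1 fell with a log2 fold change of -0.82 (SE 0.16, adjusted p = 0.00262). ORC2 to ORC6 were not called and spread on both sides of 0, between -0.31 (ORC2) and 0.38 (ORC4). ORC2 to ORC5 rested on few reads: ORC2 had 207 reads over the 3 knockdown libraries and 277 over the controls, and ORC3, ORC4 and ORC5 had fewer. Their 95% intervals were correspondingly wide, for ORC4 from -0.56 to 1.31, which covers 0. The lower limits of ORC3, ORC4 and ORC5 (-0.55, -0.56 and -0.76) stood above the -0.82 of ORC1, and that of ORC2 (-1.04) below it. A difference in change between ORC1 and the other subunits was not tested. ORC6, the better measured one, had a log2 fold change of -0.30 with an interval from -0.64 to 0.04.

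The licensing factors were not called. CDC6, the ATPase that joins ORC to load the helicase, had 19.4, 21.4 and 19.7 CPM with siIGF2BP1 against 22.6, 26.5 and 25.6 CPM with siC, which did not overlap (log2 fold change -0.30, adjusted p = 0.212). CDT1, the partner that escorts the MCM ring, had -0.22 (95% interval -0.49 to 0.05), and its inhibitor geminin (GMNN) had -0.12 on 214 reads in knockdown and 246 in control libraries.

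All 6 genes of the MCM2-7 ring, the motor of the replicative helicase, had log2 fold changes below 0, and MCM2, MCM3 and MCM5 were called. Over all tested genes 6.66% were called lower, and 46.7% had a log2 fold change below 0. MCM2 (ENSG00000073111; chromosome 3, 127598223 to 127622436, plus strand) had 666, 507 and 588 CPM with siIGF2BP1 against 892, 828 and 822 CPM with siC. The spread was wider among knockdown than among control libraries, and the groups stayed apart (log2 fold change -0.53, SE 0.11, adjusted p = 0.00412). Antisense genes overlap 23.6% of the exon bases of MCM2. The libraries were directional, but how the counting used strand was not stated, so values of genes with such overlap are uncertain. MCM3 (ENSG00000112118; chromosome 6, 52264009 to 52284881, minus strand) had 83.1, 70.9 and 84.6 CPM with siIGF2BP1 against 105, 109.8 and 103 CPM with siC. The controls of MCM3 varied little (log2 fold change -0.42, SE 0.11, adjusted p = 0.0182). MCM5 (ENSG00000100297; chromosome 22, 35400063 to 35425430, plus strand) had 326, 259 and 303 CPM with siIGF2BP1 against 411, 384 and 382 CPM with siC. Knockdown 2 was the lowest library for MCM2, MCM3 and MCM5 alike (MCM5 log2 fold change -0.41, SE 0.11, adjusted p = 0.0172).

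The other ring subunits missed the threshold. MCM7 had 1386, 1217 and 1280.4 CPM with siIGF2BP1 against 1618, 1645 and 1499.9 CPM with siC (log2 fold change -0.29, adjusted p = 0.0615). MCM7 was called lower by DESeq2, by limma-voom, without a count filter, without knockdown 1, with the replicate block and with the GC offset, and AP4M1 on the other strand overlaps 8.94% of its exon bases. MCM4 had -0.26 (adjusted p = 0.116) and MCM6 had -0.17 (adjusted p = 0.656), with overlapping groups at 8.91, 13.2 and 11.9 CPM with siIGF2BP1 and 11.2, 14.6 and 12.5 CPM with siC. MCM8, a helicase of recombination and repair, and MCM10, which helps the assembled helicase to start, had -0.15 and -0.48 with intervals that reached above 0 (up to 1.06 and 0.34).

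Of the 10 genes that turn the loaded ring into a moving helicase, 4 were called lower and 0 higher. Of all tested genes 6.66% were called lower and 6.27% higher. RECQL4 (ENSG00000160957; chromosome 8, 144511288 to 144517845, minus strand), a RecQ helicase homolog needed to start replication, had the lowest adjusted p of all 53. It had 280, 251 and 267 CPM with siIGF2BP1 against 507, 486 and 417 CPM with siC. The highest knockdown library was far below the lowest control (log2 fold change -0.82, SE 0.11, adjusted p = 7.17e-05). Antisense overlap covers 4.67% of its exons.

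The GINS complex, a scaffold that completes the active helicase, had 3 of its 4 subunits called lower, against 6.66% of all tested genes. GINS1 (ENSG00000101003; chromosome 20, 25407727 to 25452628, plus strand) had 24.9, 29.1 and 27.6 CPM with siIGF2BP1 against 39.3, 38.2 and 40.1 CPM with siC (log2 fold change -0.53, SE 0.13, adjusted p = 0.0127). GINS2 (ENSG00000131153; chromosome 16, 85676198 to 85690073, minus strand) had 38.5, 42.8 and 43.8 CPM with siIGF2BP1 against 56.0, 65.6 and 57.2 CPM with siC (-0.52, SE 0.12, adjusted p = 0.00938). GINS3 (ENSG00000181938; chromosome 16, 58295080 to 58406144, plus strand) had 8.80, 8.40 and 9.18 CPM with siIGF2BP1 against 13.0, 12.8 and 16.2 CPM with siC (-0.67, SE 0.19, adjusted p = 0.026). In these 3 genes the libraries of each group were close together except control 2 for GINS2 and control 3 for GINS3, both the highest of their group. GINS4 had -0.34 with overlapping groups (95% interval -0.84 to 0.15). Antisense overlap covers 10.9% of the exons of GINS3 and 23.6% of those of GINS4.

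The remaining activators were not called. CDC45, the partner of GINS on the ring, had a log2 fold change of -0.16 (95% interval -0.41 to 0.08), and TICRR, the human counterpart of yeast Sld3, had -0.46 (adjusted p = 0.123). CDC7 and DBF4, the kinase and its activator that trigger firing, held 45 and 43 reads over the 3 knockdown libraries and 37 and 47 over the controls. Their intervals, -1.23 to 1.96 and -1.43 to 1.25, leave changes of up to several-fold undetectable at this depth. TOPBP1, which docks firing factors, had -0.36 on 137 reads in knockdown and 191 in control libraries.

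Among the polymerases, POLE, the catalytic subunit of the leading-strand enzyme, was the called gene. POLE (ENSG00000177084; chromosome 12, 132623753 to 132687365, minus strand) had 107, 73.2 and 89.0 CPM with siIGF2BP1 against 139, 158 and 121 CPM with siC. Both groups spread widely and knockdown 1 came nearest to the controls (log2 fold change -0.64, SE 0.14, adjusted p = 0.00516). Its accessory subunits were not called: POLE3, a histone-fold subunit, had -0.15 (95% interval -0.39 to 0.09) and its partner POLE4 had 0.22 (-0.01 to 0.46). POLE4 stood at 139, 168 and 178 CPM with siIGF2BP1 against 144, 137 and 136 CPM with siC, and knockdown 1 was the library that overlapped. POLE2 had -0.07 (-0.89 to 0.76). Whether the subunits differ in their change was not tested.

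Polymerase delta and polymerase alpha-primase had 0 called members of 7, near the shares of all tested genes called lower (6.66%) or higher (6.27%). POLD1, the catalytic subunit of polymerase delta, had 192, 169 and 176 CPM with siIGF2BP1 against 227, 211 and 214 CPM with siC (log2 fold change -0.28, adjusted p = 0.0751). POLD2, its regulatory subunit, was among the best measured genes and had 0.04 with an interval from -0.17 to 0.25. POLD3 had -0.12 (-0.63 to 0.39). Polymerase alpha (POLA1, POLA2) and the primase subunits (PRIM1, PRIM2) lay between -0.27 and 0.53, and POLA1 rested on 102 reads in knockdown and 76 in control libraries.

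PCNA, the sliding clamp that tethers polymerases, was called and its loader was not. PCNA (ENSG00000132646; chromosome 20, 5114953 to 5126626, minus strand) had 38.2, 50.3 and 48.2 CPM with siIGF2BP1 against 54.5, 74.4 and 68.6 CPM with siC. Replicate 1 was the lowest library in both groups (log2 fold change -0.53, SE 0.14, adjusted p = 0.0198). The 5 clamp loader genes RFC1 to RFC5 had log2 fold changes between -0.77 and 0.01. RFC2 was precise (-0.24, adjusted p = 0.11), with 172, 165 and 177 CPM with siIGF2BP1 and 206, 202 and 201 CPM with siC. RFC3 had the lowest value of the loader on few reads, 171 in knockdown and 324 in control libraries (adjusted p = 0.148).

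Both genes that finish lagging-strand fragments were called lower, against 6.66% of all tested genes. LIG1 (ENSG00000105486; chromosome 19, 48115445 to 48170603, minus strand), the ligase that seals nicks, had 83.8, 66.8 and 75.8 CPM with siIGF2BP1 against 110.0, 106 and 106 CPM with siC (log2 fold change -0.51, SE 0.11, adjusted p = 0.00617). FEN1 (ENSG00000168496; chromosome 11, 61792637 to 61797244, plus strand), the nuclease that trims flaps, had 123, 110.0 and 131 CPM with siIGF2BP1 against 165, 157 and 139 CPM with siC. Its groups came within a few CPM of each other, and its call was the weakest of the 12 (-0.34, SE 0.11, adjusted p = 0.0498), lost with no scaling factor, by limma-voom and without any 1 of 4 libraries (knockdown 2, knockdown 3, control 1 or control 2; adjusted p up to 0.125). Antisense overlap covers 2.72% of the exons of LIG1 and 6.70% of those of FEN1.

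The 3 subunits of RPA, which coats single-stranded DNA, and the 4 fork protection genes were not called. Of all tested genes 6.66% were called lower and 6.27% higher. RPA1 had -0.24, RPA2 0.06 and RPA3 -0.18. TIMELESS, which with TIPIN and CLSPN couples the helicase to the polymerases, was well measured and had -0.06 (95% interval -0.29 to 0.18). CLSPN, TIPIN and the polymerase alpha tether WDHD1 had -0.20, -0.38 and 0.13, with WDHD1 at 40 reads in knockdown and 38 in control libraries.

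**Figure D2:**
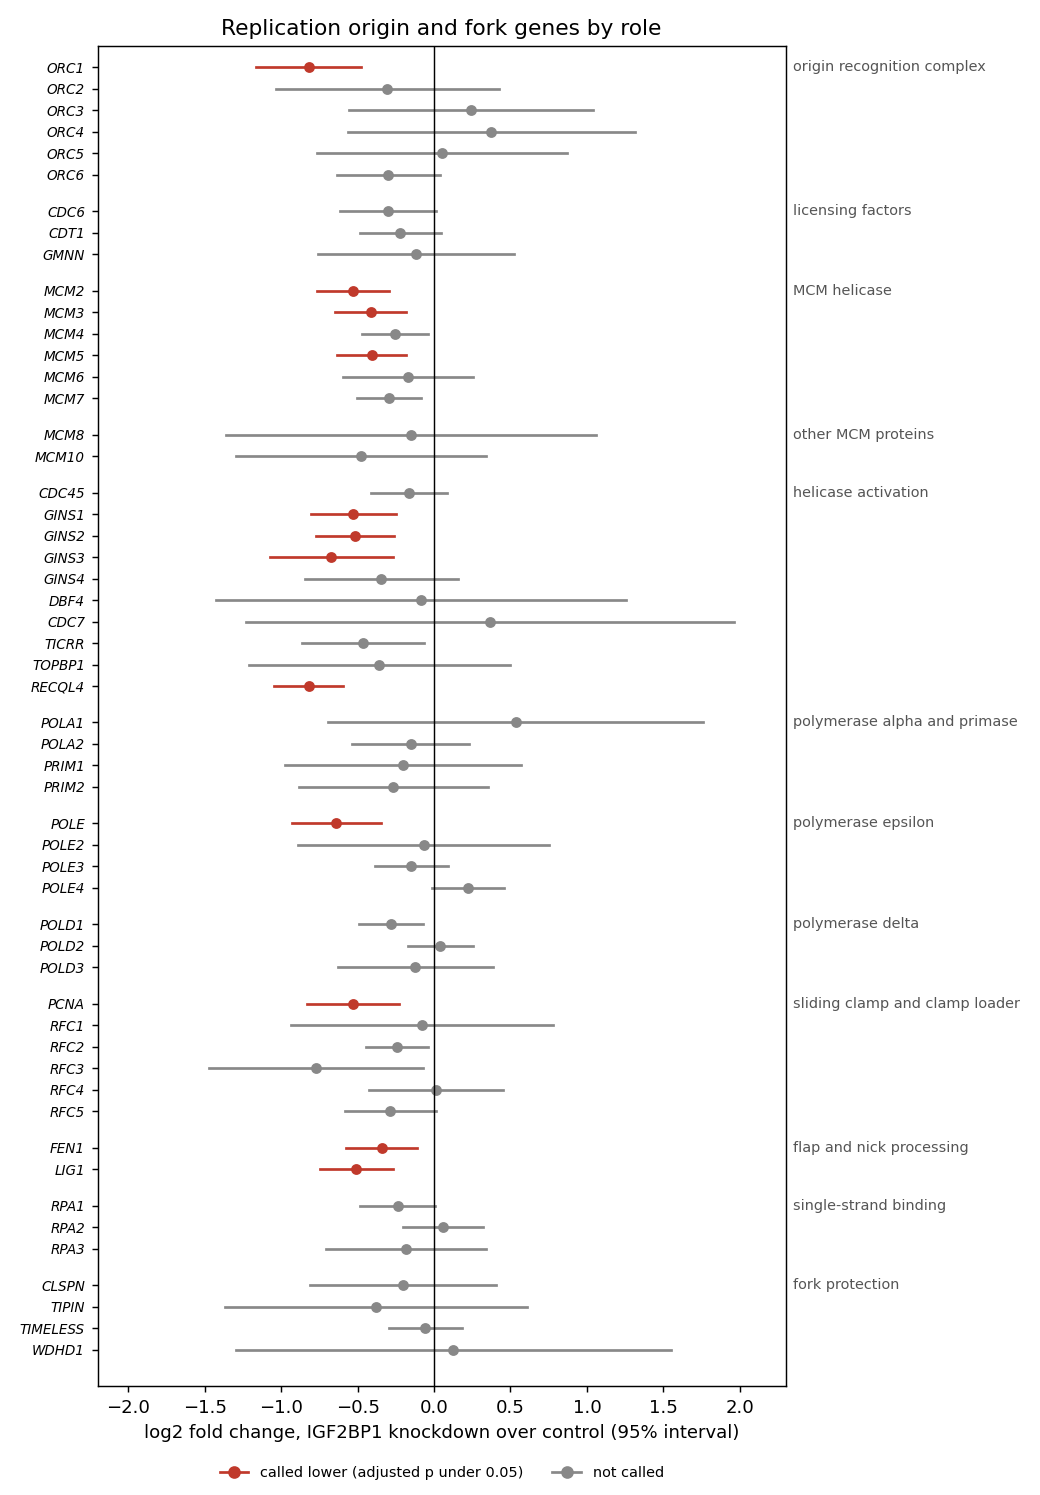
Log2 fold change (knockdown over control) of each of the 53 genes, by role, with its 95% interval from edgeR's quasi-likelihood fit; red marks the 12 genes called lower. Intervals are narrow for abundant genes such as MCM7 (-0.50 to -0.08) and wide for scarce ones such as CDC7 (-1.23 to 1.96).

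Of the 12 calls 6, ORC1, MCM2, GINS1, RECQL4, POLE and LIG1, held in each of the 14 alternatives run, and all 12 kept their direction in them. The count of lower genes was 8 without control 2 (4.6% of all genes in that fit), where MCM3, GINS2, PCNA and FEN1 dropped out, and 9 without knockdown 3 (4.66% of all), where MCM5, GINS3 and FEN1 did. With the replicate block it was 14, with MCM7 and POLD1 added (8.69% of all). MCM5 lost its call without knockdown 3 (adjusted p = 0.0516), GINS3 without knockdown 1, knockdown 3 or control 3 (up to 0.122), and PCNA without knockdown 1, control 2 or control 3 (up to 0.112) and with no scaling factor (0.0584).

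The promoters of ORC1, MCM2 and POLE are shown because these 3 had the lowest adjusted p among the members matched to a RefSeq promoter. Each sequence runs 5′ to 3′ on the strand of the gene, from 250 bases before the RefSeq start to 50 after it, in build GRCh38.p14. The windows are chr1:52404374-52404673 (minus strand), chr3:127598161-127598460 (plus strand) and chr12:132687293-132687592 (minus strand). Capitals mark matches to E2F words, and ORC1 has none in this window.
ORC1: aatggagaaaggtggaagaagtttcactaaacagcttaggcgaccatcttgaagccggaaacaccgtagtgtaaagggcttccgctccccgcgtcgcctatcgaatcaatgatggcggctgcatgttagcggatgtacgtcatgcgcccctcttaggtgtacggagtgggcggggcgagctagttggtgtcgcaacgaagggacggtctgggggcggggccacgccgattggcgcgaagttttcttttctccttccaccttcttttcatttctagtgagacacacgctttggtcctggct
MCM2: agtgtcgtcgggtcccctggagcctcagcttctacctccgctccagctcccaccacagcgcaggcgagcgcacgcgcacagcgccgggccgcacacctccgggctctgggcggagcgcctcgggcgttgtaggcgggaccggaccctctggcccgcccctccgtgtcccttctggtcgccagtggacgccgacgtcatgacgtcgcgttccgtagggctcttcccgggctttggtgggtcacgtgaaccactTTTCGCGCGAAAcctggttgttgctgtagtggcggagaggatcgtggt
POLE: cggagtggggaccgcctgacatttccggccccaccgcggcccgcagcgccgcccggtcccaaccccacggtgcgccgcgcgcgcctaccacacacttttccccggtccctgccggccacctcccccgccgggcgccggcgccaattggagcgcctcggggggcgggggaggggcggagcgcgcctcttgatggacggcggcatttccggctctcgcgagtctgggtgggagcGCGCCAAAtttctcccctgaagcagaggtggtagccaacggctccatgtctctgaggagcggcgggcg

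The E2F words searched were TTTCCCGC, TTTCGCGC, TTTGCCGC and TTTGGCGC, on both strands. In MCM2 the word TTTCGCGC lies at bases 3 to 10 after the start, counted from 1 at the start, and overlaps its own reverse complement at bases 7 to 14. In POLE the word TTTGGCGC lies on the opposite strand at bases -18 to -11. Of the 53 genes 46 had a RefSeq promoter; MCM4, MCM5, RECQL4, GINS4, POLD3, RPA2 and RPA3 did not match an entry. At least 1 E2F word was found in 24 of the 46 (52.2%), against 3.99% of 27305 RefSeq genes, which were not limited to the genes tested here. An E2F word was found in 8 of 10 called genes (GINS1, GINS2, GINS3, LIG1, MCM2, MCM3, PCNA and POLE) and in 16 of 36 that were not called (44.4%). Within the 53 genes calls also went with read depth, since the 19 under 5 CPM had 0 calls. The share called among all tested genes under 5 CPM was not counted. Over all tested genes 975 of 14649 were called lower, and with a filter of 5 CPM in 3 libraries 931 of 8163. The part of depth here was not tested. The CCAAT box word CCAAT was found in 27 of the 46 (58.7%), against 39.7% of all, and the cell-cycle homology word TTTGAA in 2 of the 46 (DBF4 and POLE3; 4.35%), against 18.2% of all. A match is a description of these windows, not evidence of binding.

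Levels per kilobase spanned a wide range. They are TMM-scaled CPM per kilobase of the deposited gene length (RPKM), and they ran with the GC content of the transcripts (rho 0.84, given below), so an order of genes by RPKM may not be their order in the cells; the part of GC content in it was not tested. MCM7 was the highest at 261 ± 17.2 RPKM in knockdown and 320 ± 15.6 RPKM in control libraries (SD, n = 3 each), followed in the controls by MCM2 (180) and RECQL4 (104). POLA1 was the lowest in the controls, at 0.0981 RPKM in knockdown and 0.0676 RPKM in control libraries. Per kilobase of the longest transcript instead, POLD2 (332 in controls) came between MCM7 (515) and MCM2 (234), and WDHD1 (0.0885) was the lowest. The 6 ring subunits, which the helicase holds in equal numbers, had unequal RPKM, with a GC content of 43.1% in MCM6 and 57.6% in MCM7. In the controls MCM7 (320), MCM2 (180), MCM5 (54.0), MCM3 (29.1), MCM4 (24.5) and MCM6 (3.09) followed in this order, and each neighbouring pair was separated by more than its SDs. In knockdown libraries MCM7 (261), MCM2 (124) and MCM5 (40.7) led and MCM6 (2.74) was last. MCM3 (21.8 ± 2.05) and MCM4 (20.5 ± 1.66) lay within their SDs, though MCM3 was the higher of the pair in each knockdown library. The deposited length of MCM4 (9852 bases) is longer than its longest GENCODE 29 transcript (4183 bases), and with transcript lengths MCM4 (57.7 RPKM in controls) came before MCM3 (33.1).

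**Figure D3:**
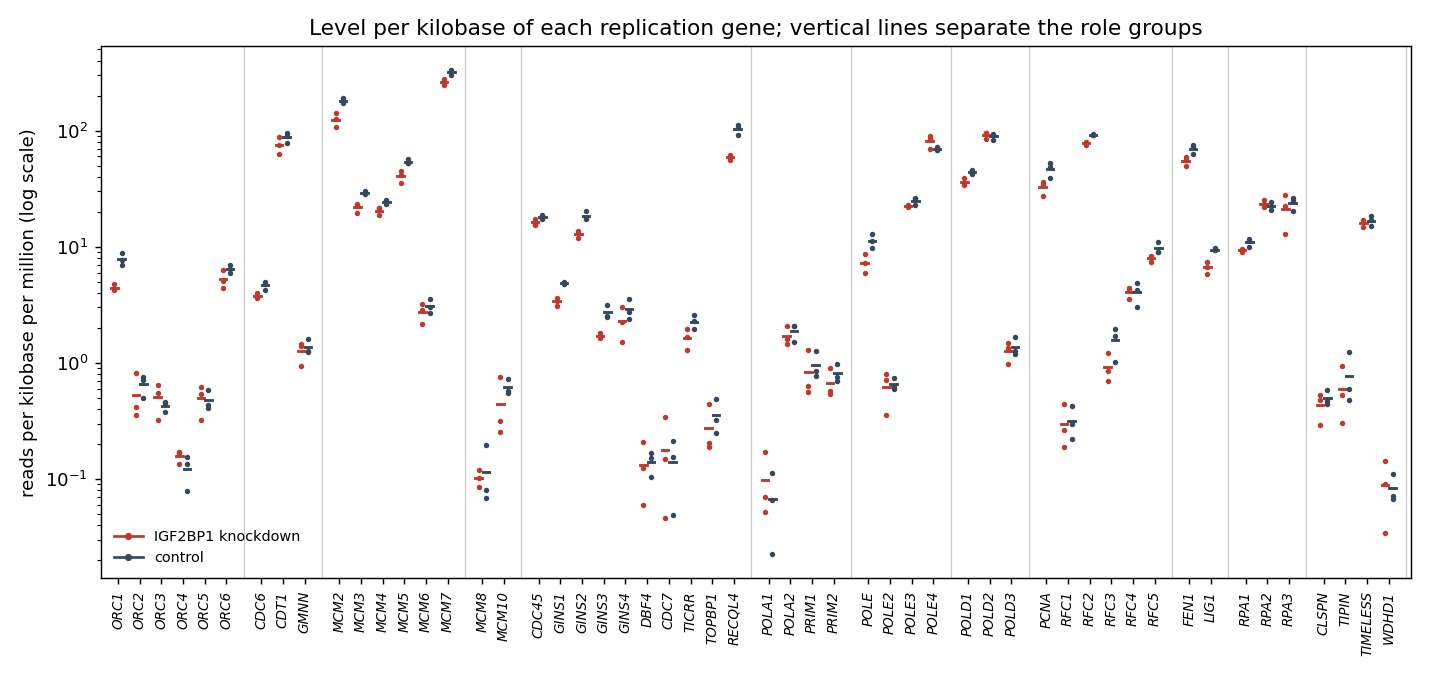
Level of each gene in RPKM (log axis), with knockdown libraries (red) left of control libraries (dark); points are libraries and bars the group means. MCM7 (261 in knockdown, 320 in control) is the highest gene, and MCM6 (2.74 in knockdown, 3.09 in control) the lowest of the MCM2-7 ring.

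The level of these genes ran closely with the GC content of their transcripts. Spearman's rho between GC content of the longest transcript and level per kilobase was 0.84 over the 53 genes and 0.46 over the 14256 tested genes with a GC value; it is a description, since all genes share the same libraries. The 24 replication genes under 45% GC included ORC2 to ORC5, DBF4, CDC7, PRIM1, PRIM2, POLA1, TOPBP1 and WDHD1, and 2 of them, GINS1 and GINS3, were called, against 1.99% of all tested genes under 45% GC. Of the 29 genes at 45% GC or more, 10 were called, against 8.83% of all tested genes of that class. The SE of the fold change fell with GC content over the 53 genes (rho -0.86). The 34 genes with a mean of at least 5 CPM had a median SE of 0.12 and held all 12 calls. The 19 below it had a median SE of 0.39 and 0 calls, and no share was counted for all genes below it. Median log2 fold changes were -0.29 at 5 CPM or more and -0.12 below it. They were -0.29 at 45% GC or more and -0.16 under 45%. Spearman's rho between GC content and log2 fold change was -0.33 over the 53 genes and -0.02 over the 14256 tested genes with a GC value. The parts of depth, GC content and size of change in the calls were not tested. Among the 8163 genes of the whole series that pass a filter of 5 CPM in 3 libraries, 11.4% were called lower, against 12 of the 34 replication genes that pass it.

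Low-GC genes stood at different levels from library to library, and the part of this in the results was not tested. The replication genes under 45% GC had a median log2 deviation from the mean of all 6 libraries of -0.38, 0.22 and -0.03 in knockdowns 1 to 3, against -0.13, 0.22 and 0.09 in controls 1 to 3. The groups overlapped in this measure, with knockdown 2 and control 2 high and knockdown 1 and control 1 low. With a per-library GC correction, chosen after seeing the data, 17 of the 53 were lower and 0 higher: the same 12 and CDT1, MCM4, MCM7, POLD1 and RFC2. That correction called 10.6% of all tested genes lower and 6.48% higher.

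**Figure D4:**
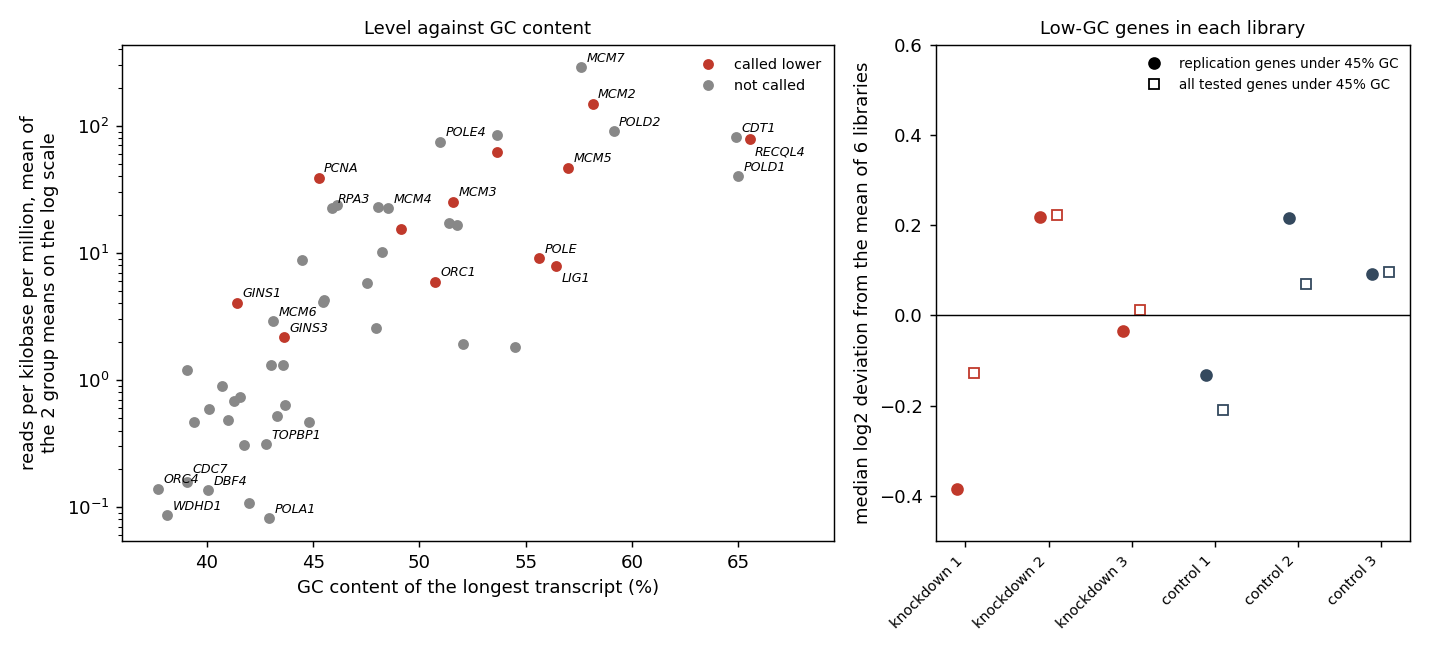
Left, level per kilobase (log axis; geometric mean of the group means) against transcript GC content of the 53 genes, red where called lower. Right, median log2 deviation of genes under 45% GC from the mean of 6 libraries, for the replication genes (filled) and all tested genes (open); knockdown 1 is lowest at -0.38 for the replication genes.

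Of 37 further replication, chromatin assembly and checkpoint genes 35 were tested. Of these 4 (11.4%) were lower and 0 higher, against 6.66% and 6.27% of all tested genes. RNASEH2C was the single one higher at an unadjusted edgeR p under 0.05, a threshold at which 1920 of all 14649 tested genes were higher. UHRF1, which guides DNA methylation to new strands, had 87.0 ± 8.78 CPM in knockdown and 148 ± 16.1 CPM in control libraries (SD, n = 3 each), a log2 fold change of -0.77 (adjusted p = 3.29e-04). CHAF1A, the large subunit of the histone chaperone CAF-1, had 55.3 ± 6.63 CPM in knockdown and 91.9 ± 10.3 CPM in control libraries (-0.73, adjusted p = 8.47e-04). TONSL (-0.35, adjusted p = 0.0324), a reader of new histones, and the maintenance methyltransferase gene DNMT1 (-0.35, adjusted p = 0.0424) were the others. TONSL and DNMT1 lost their calls with no scaling factor and without any 1 of 4 libraries, up to adjusted p-values of 0.0949 and 0.204. The 8 tested checkpoint genes, including ATR and CHEK1, were not called.

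Of 12 regulators of the G1/S step, 4 were lower and 0 higher, against 6.66% and 6.27% of all tested genes. By log2 fold change 7 of the 12 were below 0 and 5 above. Of those above, 2 had an unadjusted edgeR p under 0.05, against 1920 of all 14649 tested genes higher at that threshold. The 2 genes were E2F3 (0.79, adjusted p = 0.0716), with all knockdown libraries above all controls, and RB1 (1.03, adjusted p = 0.108), with overlapping groups. E2F1, a transcription factor of S-phase genes, had 110.3 ± 3.66 CPM in knockdown and 172 ± 13.2 CPM in control libraries (SD, n = 3 each, as for the genes that follow; adjusted p = 5.39e-04). CCNE1, the cyclin of CDK2, had 9.18 ± 1.91 CPM in knockdown and 21.8 ± 2.55 CPM in control libraries (adjusted p = 3.64e-04). CDC25A, the phosphatase that activates CDK2, had 56.9 ± 8.36 CPM in knockdown and 115 ± 13.0 CPM in control libraries (adjusted p = 6.12e-05). E2F2 was the other (log2 fold change -0.79, adjusted p = 0.016). Mitosis markers had 0 of 15 called, while their median log2 fold change was -0.22, beside -0.24 for the replication genes; whether the lists differ was not tested.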

How the data were processed

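Raw counts of reads for each gene, with the gene length, were deposited as 1 table. The submitters' processing notes name featureCounts 2.0.0, HISAT2 2.1.0, cutadapt 2.8, SAMtools 1.10 and build hg38, with no settings. The sources used here do not state the annotation release, the strand setting or how multi-mapping reads were handled. Libraries were directional (dUTP), per the labels. Columns were matched to samples by library name, leaving 0 over. Reads of genes with the chromosome label MT summed to 0 in all libraries, and whether any gene carries that label was not checked.

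Genes passing filterByExpr (minimum count 10, minimum total 15) entered edgeR 4.0.16 (R 4.3.3; TMM factors, robust glmQLFit and glmQLFTest, 2 groups, no covariate), with Benjamini-Hochberg adjustment over all 14649 genes and calls at 0.05. CPM are TMM scaled, and the SE is the coefficient over the square root of its F statistic. Alternatives were RLE scaling, no scaling factor, no filter, a minimum of 5 CPM in 3 libraries (the stricter filter), a replicate block, each library left out in turn, DESeq2 1.42.0, limma-voom (limma 3.58.1) and, added after seeing the data, a GC offset (loess, span 0.5; 97.3% of tested genes had a GC value). The fit was tested on simulated data. The members, the gene lists and the naming rule (every member; up to 4 called genes per direction of the further replication lists; IGF2BP1, E2F1, CCNE1 and CDC25A) were chosen with earlier results of these data known. Replicates of a group differed beyond sampling noise (chi-square per degree of freedom 14.6 to 36.2), so none was counted as a copy. Coordinates, GC content and antisense overlap come from GENCODE release 29 (GRCh38, called hg38), and promoters from RefSeq. Of 18 pseudogenes named after a member, 3 held any reads.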

Additional observations from a re-analysis of the deposited data

How the results depend on the processing

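The 12 called replication genes kept their direction in each alternative, and the median log2 fold change of the replication genes tested stayed between -0.31 and -0.16. The number called lower stayed between 8 (without control 2) and 17 (GC offset) around the 12 reported, with 14 called with the replicate block. Called higher were 0 to 1 without a library (POLE4, without knockdown 1). The further replication genes called lower were 4, and 9 with the GC offset (which called 10.6% of all genes lower). More than 4 were lower also with no count filter, with the replicate block and by DESeq2. These settings called 1198, 1273 and 1212 of all genes lower. With no scaling factor 2 were lower and 1, RNASEH2C, was higher, against 768 and 1319 of all 14649 genes. Without a library 2 to 6 were lower, against 4.6% (without control 2) to 7.48% (without knockdown 1) of all genes. Over all genes 975 were lower and 918 higher (48.5% higher); these were 768 and 1319 (63.2%) with no scaling factor and 1555 and 949 (37.9%) with the GC offset, and without a library the number higher was 529 to 828. The cause of these shifts was not tested.

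Replicate numbers are not shown to pair the libraries: same-numbered libraries had correlations of their deviations from the group means of 0.179, 0.0863 and -0.073, and knockdown 2 correlated best with control 3 (0.166). With the replicate block 2431 genes were called in place of 1893.

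Signs of 18 members that were not called turned in some alternative. With no scaling factor POLE2 had 0.0179, RFC1 0.0166 and TIMELESS 0.0262; with limma-voom MCM8 had 0.0276; with the GC offset ORC5 had -0.0392, POLD2 -0.0119, RFC4 -0.0238 and WDHD1 -0.0755. Without a library in turn, the log2 fold changes ranged as follows. The range was ORC5 from -0.1621 to 0.2702, GMNN from -0.2487 to 0.0509, MCM8 from -0.4423 to 0.4585, DBF4 from -0.6027 to 0.2336, CDC7 from -0.4863 to 0.823 and POLA1 from -0.174 to 1.123. Further ranges were PRIM1 from -0.6975 to 0.03443, POLE2 from -0.2882 to 0.1976, POLD2 from -0.02423 to 0.06895, POLD3 from -0.2524 to 0.01999, RFC1 from -0.5149 to 0.1901 and RFC4 from -0.1872 to 0.1615. The last were RPA2 from -0.02824 to 0.1054, RPA3 from -0.4392 to 0.06458, CLSPN from -0.4168 to 0.01631, TIPIN from -0.8974 to 0.1463 and WDHD1 from -0.3995 to 0.4851. Most of these genes have few reads, and depth limits them: members under 5 CPM had a median SE of 0.39.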
